A study of Danio rerio with 6 samples.

Results

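Complex I, the NADH dehydrogenase of the respiratory chain, has 7 core subunits that vertebrates encode in mitochondrial DNA. The transcripts of these 7 genes, mt-nd1, mt-nd2, mt-nd3, mt-nd4l, mt-nd4, mt-nd5 and mt-nd6, are described here in sorted zebrafish thrombocytes. They were chosen by Ensembl identifier, and all 7 were found among the 32520 genes of the deposited count table. The gene name table at hand gave each of them the same subunit name.

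Thrombocytes are nucleated blood cells that serve fish as platelets serve mammals. The miR-150 group (n = 3 libraries) came from larvae with the transgenes itga2b:miR-150-tagRFP and itga2b:EGFP, in which the promoter of the thrombocyte gene itga2b drove the microRNA miR-150 together with the red protein tagRFP. The control group (n = 3 libraries) came from larvae with itga2b:tagRFP and itga2b:EGFP, without the miR-150 transgene. Larvae of both groups thus carried a red and a green itga2b reporter, were kept in 0.003% PTU (1-phenyl 2-thiourea, which blocks pigment) from 24 to 30 hours of age on, and gave up cells that were positive for both colours at 5 days after fertilization. The transgene acts wherever the itga2b promoter is active, and the number of larvae behind a library is not given in the sources used here. The comparison asked which transcripts differed in thrombocytes with added miR-150.

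Complex I takes electrons from NADH, passes them to ubiquinone and pumps protons across the inner mitochondrial membrane. Its mitochondrially encoded subunits form the core of the membrane arm, where protons are moved, while the arm that binds NADH is built from subunits encoded in the nucleus and imported. Mitochondrial DNA is transcribed from both strands into long precursors that are cut at the tRNA genes between the coding regions, so subunit transcripts share their synthesis and can still differ in their stability. In vertebrates mt-nd6 is the only protein gene read from the opposite strand to the others. In the RefSeq gene order of the assembly GRCz12tu, no gene stands between mt-nd4l and mt-nd4 or between mt-nd5 and mt-nd6, while tRNA genes stand on the far side of each pair.

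Libraries held 17353158, 22150519 and 16616697 counts in miR-150 replicates 1, 2 and 3, against 20559611, 12972258 and 17330397 counts in control replicates 1, 2 and 3. Summed markers of thrombocytes were at 7050, 7779 and 2413 CPM (counts per 1e6 counts of the library, after scaling by TMM, a trimmed mean of log ratios between libraries) in the miR-150 libraries and at 10196, 6444 and 5580 CPM in the controls. miR-150 replicate 3 was therefore the lowest by this sum. Most of the sum was itga2b, at 1297 CPM in that library against 3403 to 6199 CPM in the other 5 libraries. Of the tested thrombocyte markers gp9 alone was lowest elsewhere, at 73.0 CPM in miR-150 replicate 1 against 93.9 CPM in miR-150 replicate 3. Of the 9 matched thrombocyte markers, 7 were above 10 CPM in every library, p2ry12, which encodes the ADP receptor of platelets, was at 0 in every library, and vwf was at or near 0 in all but control replicate 3. Summed epidermal keratin markers lay between 847 CPM (control replicate 1) and 17870 CPM (control replicate 3). Summed hepatocyte markers were at 4332 CPM in control replicate 3 and at most 153 CPM elsewhere. miR-150 replicate 3 also had the lowest mean correlation of log2 CPM with the other libraries, 0.60 against 0.70 to 0.72. Genes with at least 5 counts numbered 17805, 16127 and 14091 in the miR-150 libraries and 14078, 15329 and 17185 in the controls. The part of these differences in the results that follow was not tested. Where values without a library are given, all that sets that library apart is left out together, so they cannot single out these markers.

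The 7 complex I genes took 0.271%, 0.10995% and 0.407% of all counts in miR-150 replicates 1, 2 and 3. In control replicates 1, 2 and 3 they took 0.104%, 0.185% and 0.170%. Counting error alone was small, with Clopper-Pearson exact 95% intervals from 0.404% to 0.411% for the highest library and from 0.103% to 0.106% for the lowest. miR-150 replicates 1 and 3 were thus above every control, and miR-150 replicate 2 was below all but control replicate 1. The group means were 0.263% ± 0.149 in miR-150 libraries and 0.153% ± 0.0429 in controls (SD, n = 3 each). Without miR-150 replicate 3 the difference of the means, 0.1096 percentage points, was 0.0372 percentage points. In bulk RNA of sorted cells, more RNA per cell and another mixture of cells cannot be told apart.

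Each of the 7 transcripts had at least 453 counts in every library, and all 7 passed the filter on low counts. Their means were 1.72 to 3.03 times as high in miR-150 libraries as in controls on the scale of TMM-scaled CPM. A gene was called when its adjusted p in the quasi-likelihood fit of edgeR (Benjamini-Hochberg over 15722 genes) was below 0.05. None of the 7 was called, and of all genes tested 0% were called. Without adjustment, 0 of the 7 had a p below 0.05 in this fit, against 5.44% of all genes. DESeq2 also called 0 of the 7, where it called 1.68% of the genes to which it gave an adjusted p-value. The log2 fold change was above 0 for 7 of 7 members, as for 51.8% of all genes tested. The median over the 7 was 0.96, with a range from 0.78 to 1.60, beside a median of 0.044 over all genes. Of all genes tested, 22.2% had a log2 fold change at least as high as that median. The 7 values come from the same 6 libraries and a single genome and do not count as 7 separate observations.

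**Figure D1:**
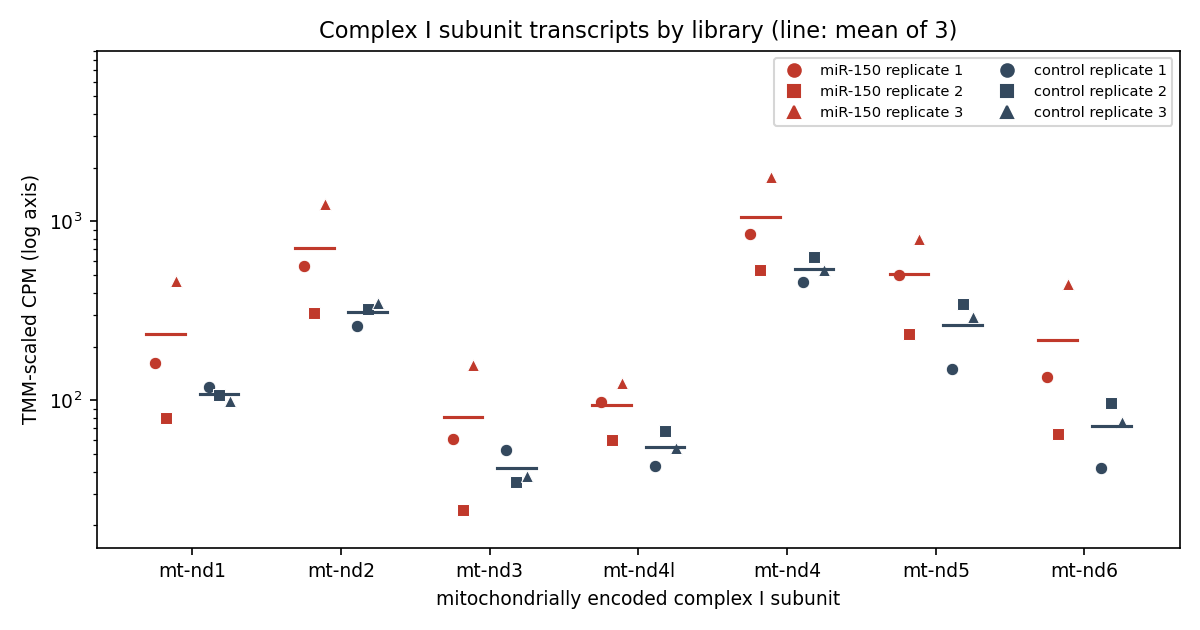
TMM-scaled CPM (log axis) of the 7 mitochondrially encoded complex I transcripts in each miR-150 library (red, left) and each control library (dark, right), with a line at the mean of 3. miR-150 replicate 3 is the highest library for every transcript, and miR-150 replicate 2 lies within or below the range of the controls, as for mt-nd3 with 24.3 CPM against 35.1 to 53.0 CPM.

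mt-nd1 (ENSDARG00000063895) encodes the subunit at the joint of the 2 arms, next to the channel through which ubiquinone enters. It was at 161, 79.7 and 465 CPM in miR-150 replicates 1, 2 and 3, against 119, 108 and 99.2 CPM in control replicates 1, 2 and 3. The controls lay close together, with an SD of 9.03% of their mean, whereas the miR-150 libraries held both the lowest and the highest value. The log2 fold change was 1.12 ± 0.63 (SE) with an adjusted p of 0.988.

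mt-nd2 (ENSDARG00000063899) encodes a subunit of the proton-pumping part of the membrane arm. It was at 561, 308 and 1258 CPM in the miR-150 libraries and at 262, 325 and 350 CPM in the controls. Its lowest miR-150 library fell inside the control range and the other 2 were above it. The log2 fold change was 1.18 ± 0.57 (SE), with an adjusted p of 0.968 and a 95% interval from -0.16 to 2.52.

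mt-nd3 (ENSDARG00000063914) encodes a small subunit near the joint of the arms, with a loop that is known from mammals to move as the enzyme switches between its active and resting states. Its values were 60.6, 24.3 and 157 CPM in miR-150 libraries and 53.0, 35.1 and 37.9 CPM in controls. As for mt-nd1, miR-150 replicate 2 was the lowest of all 6 libraries. The log2 fold change of 0.94 ± 0.66 (SE) had an adjusted p of 0.988.

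mt-nd4l and mt-nd4 stand side by side in the mitochondrial genome, and in vertebrates they are kept on a shared transcript in which the reading frames overlap. mt-nd4 (ENSDARG00000063917), the subunit of a proton pump module, had the most counts of the 7 in every library. It was at 855, 533 and 1774 CPM in the miR-150 libraries and at 461, 633 and 536 CPM in the controls, with a log2 fold change of 0.96 ± 0.54 (SE; adjusted p = 0.988). mt-nd4l (ENSDARG00000063916), a small subunit of the membrane arm, was at 98.0, 60.1 and 125 CPM in the miR-150 libraries and at 42.9, 67.8 and 53.9 CPM in the controls. Its log2 fold change was the lowest of the 7, at 0.78 ± 0.40 (SE; adjusted p = 0.988), and its spread was the lowest too. For both genes miR-150 replicates 1 and 3 lay above all controls and replicate 2 lay among them.

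mt-nd5 (ENSDARG00000063921) encodes the pump subunit at the far tip of the membrane arm. It was at 499, 234 and 797 CPM in miR-150 libraries, against 150, 347 and 292 CPM in controls. Control replicate 1 was the lowest library, at less than any miR-150 library. The log2 fold change was 0.96 ± 0.57 (SE; adjusted p = 0.988).

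mt-nd6 (ENSDARG00000063922) encodes a membrane-arm subunit near mt-nd1 and mt-nd3 in the folded enzyme. Its counts, which may include reads from the opposite strand, gave the largest difference of the 7. They corresponded to 136, 65.1 and 449 CPM in miR-150 libraries and 42.0, 97.0 and 75.6 CPM in controls. The mean was 217 ± 205 CPM in the miR-150 group and 71.5 ± 27.7 CPM in the control group (SD, n = 3 each). The log2 fold change was 1.60 ± 0.74 (SE), with an unadjusted p of 0.0651 and an adjusted p of 0.959 in the edgeR fit across all genes, and the 95% interval ran from -0.13 to 3.33. The 95% intervals of the other 6 also contained 0, and their upper bounds lay between 1.73 and 2.61. Without miR-150 replicate 3, mt-nd6 no longer had the largest log2 fold change, at 0.50 against 0.54 for mt-nd4l.

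**Figure D2:**
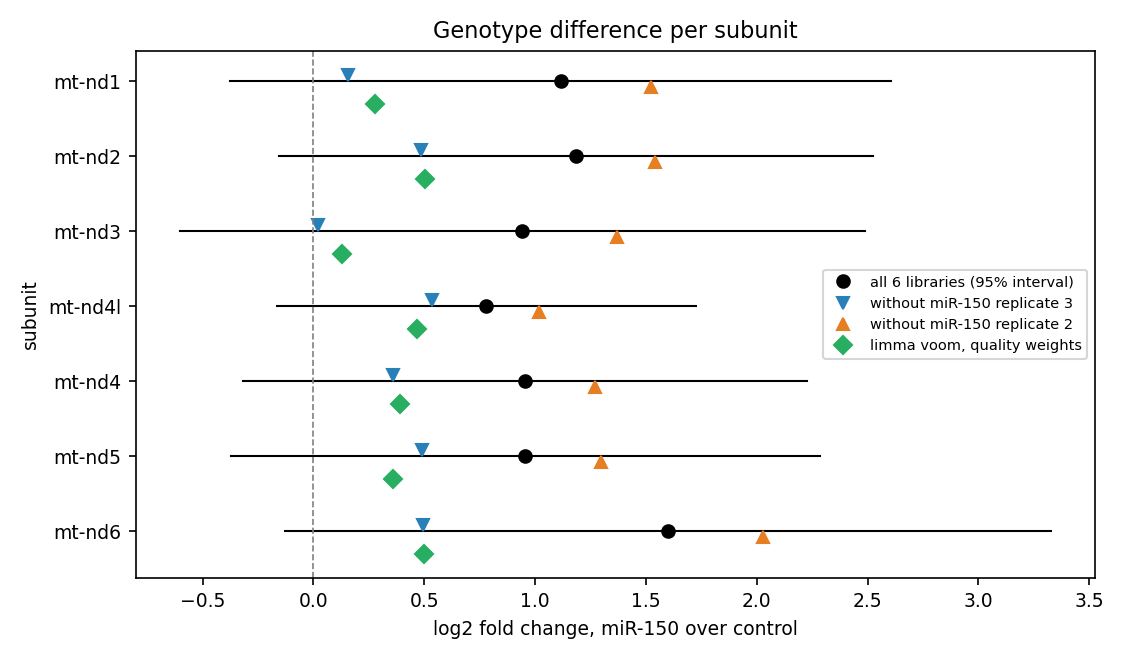
Log2 fold change, miR-150 over control, of each of the 7 transcripts in all 6 libraries (black, with the 95% interval), without miR-150 replicate 3 (blue), without miR-150 replicate 2 (orange) and under limma voom with sample quality weights (green). Every interval crosses 0, and the values without miR-150 replicate 3 lie between 0.02 and 0.54.

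The spread within the groups was mostly a matter of the miR-150 libraries. In them the SD was between 34.4% (mt-nd4l) and 94.4% (mt-nd6) of the mean, against 9.03% (mt-nd1) to 38.7% (mt-nd6) in the controls. The pooled within-group SD of log2 CPM ranged from 0.44 (mt-nd4l) to 1.09 (mt-nd6), with a median of 0.78 over the 7 beside 1.05 over all genes tested. All but mt-nd6 varied less within the groups than the median gene. The 7 were also more abundant than most genes tested, at or above percentile 68.1 in every library. Their spread was not compared with that of genes of like abundance.

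The fold changes and the overlap of the groups turned on different libraries. With all 6 libraries the groups overlapped for all 7 transcripts, so 0 of 7 were above all controls in every miR-150 library, where 7.64% of all genes tested were. Without miR-150 replicate 2, all 7 were higher in each remaining miR-150 library than in every control, where 13.5% of all genes were. With all libraries, miR-150 replicate 2 was the only miR-150 library not above every control for all 7. Leaving it out therefore fixed this count in advance, so the count is no test, and the p-values that follow rest on the same removal. In that fit the median log2 fold change of the 7 was 1.37, and 6 of 7 had an unadjusted p below 0.05, against 3.95% of all genes that did so and were higher, but the smallest adjusted p among them was 0.854 (edgeR quasi-likelihood test). Without control replicate 2, 2 of 7 did not overlap, where 11.3% of all genes were higher without overlap. Without miR-150 replicate 3 the median log2 fold change of the 7 was 0.48, and the lowest value, that of mt-nd3, was 0.02. limma voom with sample quality weights gave a median of 0.39.

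Counted against the other mitochondrial transcripts, complex I took a larger part in the miR-150 libraries. This measure sets the 7 genes against all 13 protein genes of mitochondrial DNA, the other 6 being mt-co1, mt-co2 and mt-co3 of cytochrome c oxidase, mt-atp6 and mt-atp8 of the ATP synthase and mt-cyb of complex III. The 13 genes together took 2.39%, 0.986% and 3.89% of all counts in miR-150 replicates 1, 2 and 3, and 1.41%, 1.79% and 1.97% in control replicates 1, 2 and 3. Of these 13-gene counts, the 7 complex I genes made up 11.3%, 11.1% and 10.5% in the miR-150 libraries and 7.39%, 10.3% and 8.61% in the controls. The mean was 10.98% ± 0.445 in miR-150 libraries and 8.78% ± 1.48 in controls (SD, n = 3 each). The groups did not overlap, but miR-150 replicate 3 and control replicate 2 lay only a little apart. That separation rested on single genes. With mt-nd1, mt-nd2 or mt-nd6 taken out of the sum, miR-150 replicate 3 lay below control replicate 2. As a sum over chosen genes, this share was not tested.

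On this scale mt-nd2 was the only complex I transcript for which the groups did not overlap. It made up 2.68%, 2.63% and 2.62% of the 13-gene counts in the miR-150 libraries and 1.71%, 2.09% and 2.08% in the controls. That is 1 of 7 members without overlap on this scale, where 3.38% of all genes tested were higher in every miR-150 library. The 13 genes are themselves the denominator of this scale, so the share over all genes is an unlike background for them. mt-nd4 was at 4.08%, 4.56% and 3.70% in miR-150 libraries and 3.02%, 4.06% and 3.20% in controls, so that miR-150 replicate 3 was below control replicate 2 alone. mt-nd6 was at 0.648%, 0.557% and 0.937% in miR-150 libraries and 0.275%, 0.622% and 0.451% in controls, and there miR-150 replicate 2 was below control replicate 2 alone. These 3 transcripts were singled out after their values were seen. When the library size was set to the 13-gene count in edgeR, an alternative added after seeing the data, log2 fold changes of the 7 ranged from 0.05 (mt-nd3) to 0.67 (mt-nd6), beside a median over all genes of -0.26 on that scale, and none was called (smallest adjusted p = 0.9999). mt-atp6, a subunit of the proton channel of the ATP synthase, was the only other gene of the 13 without overlap, at 6.63%, 7.96% and 8.10% in miR-150 libraries against 4.84%, 5.75% and 5.28% in controls. In the edgeR fit on the 13-gene count, mt-atp6 (0.52) and mt-atp8 (0.44) had higher log2 fold changes than every member but mt-nd6. Those of mt-co1, mt-co2, mt-co3 and mt-cyb were negative. A higher share was thus not particular to complex I.

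**Figure D3:**
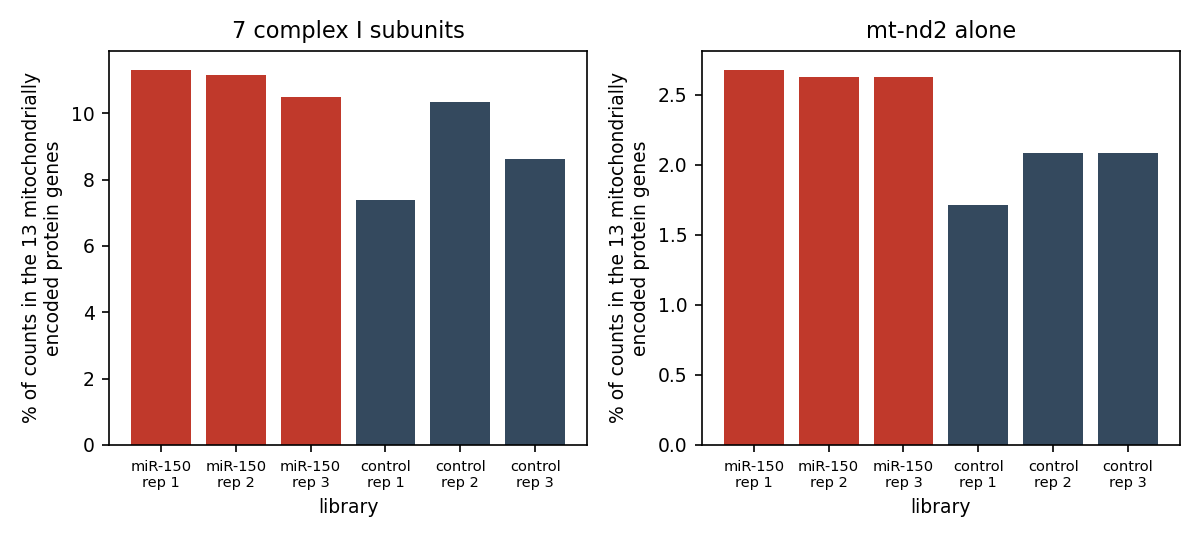
Counts of the 7 complex I genes (left) and of mt-nd2 alone (right) as a percentage of counts in the 13 mitochondrially encoded protein genes, for each miR-150 library (red) and each control library (dark). The 3 miR-150 libraries sit between 10.5% and 11.3% on the left and between 2.62% and 2.68% on the right, and the controls reach at most 10.3% and 2.09%.

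The make-up within complex I was similar in most libraries, with 2 exceptions. Counts are not scaled by transcript length here, so they give the composition of the reads and not the order of molar levels. mt-nd4 supplied 35.3% to 40.9% of the reads of the 7 genes in the 6 libraries and mt-nd2 supplied 20.2% to 25.0%. These were the steadiest parts, whereas the parts of mt-nd3 and mt-nd6 each varied by more than 2.4 times between their lowest and highest library. In miR-150 libraries mt-nd6 made up 6.55% ± 2.10 of the complex I reads, and in controls 4.99% ± 1.17 (SD, n = 3 each). The difference of 1.56 percentage points was smaller than the SD of the miR-150 libraries and larger than that of the controls, and it was 0.37 percentage points without miR-150 replicate 3.

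The first exception was miR-150 replicate 3, in which mt-nd6 and mt-nd4l departed from their neighbours. mt-nd5 had 3.68, 3.59 and 1.77 counts for each count of mt-nd6 in miR-150 replicates 1, 2 and 3, against 3.56, 3.58 and 3.87 in control replicates 1, 2 and 3. The ratio was thus nearly level in 5 libraries and much lower in miR-150 replicate 3. mt-nd4 had 8.72, 8.87 and 14.2 counts for each count of mt-nd4l in the miR-150 libraries and 10.7, 9.34 and 9.95 in the controls, so that the same library was again the outlying one. The ratio of mt-nd2 to mt-nd1 counts was 3.49, 3.86 and 2.71 in the miR-150 libraries and 2.20, 3.03 and 3.52 in controls. For that pair miR-150 replicate 3 was within the control range, and the other libraries were not level. The strand setting of the counting is not given in the sources used here. Reads from the strand opposite to mt-nd6 may be counted under it, so its counts may not come from its transcript alone. Reads over the overlap of mt-nd4l and mt-nd4 may have been dropped or split.

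The second was control replicate 1. In it mt-nd5 made up 13.3% of the complex I reads, against 15.9% to 21.5% in the other 5 libraries, and mt-nd6 made up 3.72%, against 4.99% to 8.94%. mt-nd1 was at 10.5%, against 6.11% to 9.25%, and mt-nd3 at 4.69%, against 1.86% to 3.13%. This library and miR-150 replicate 3 had the fewest genes with at least 5 counts. Control replicate 1 also had the lowest complex I part of the 13-gene counts, 7.39%, and the lowest level of epidermal keratin markers. Without it the mean part of mt-nd3 differed by 0.12 percentage points between the groups (miR-150 minus control), against -0.65 percentage points with all libraries.

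**Figure D4:**
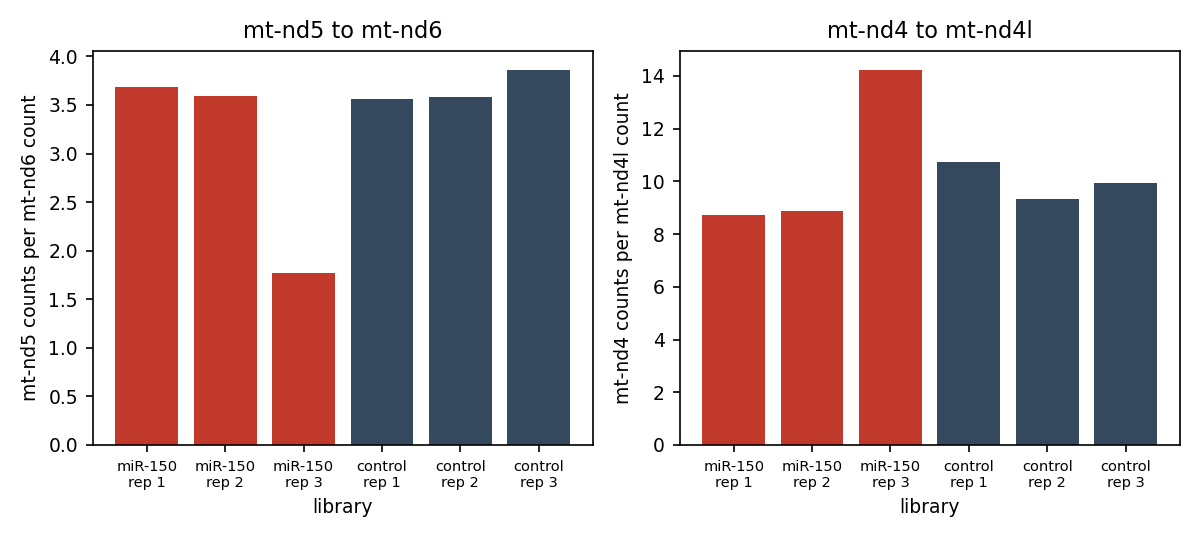
Counts of mt-nd5 for each count of mt-nd6 (left) and of mt-nd4 for each count of mt-nd4l (right) in each miR-150 library (red) and each control library (dark). miR-150 replicate 3 stands apart in both panels, at 1.77 and 14.2, while the other 5 libraries lie between 3.56 and 3.87 on the left and between 8.72 and 10.7 on the right.

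The levels of the 7 transcripts were correlated across the libraries. On log2 CPM in the 6 libraries, Pearson correlations, given as a description without a test, ranged from 0.69 (mt-nd3 with mt-nd5) to 0.99 (mt-nd2 with mt-nd4) over the 21 pairs. The libraries are shared by both sides of every pair, and miR-150 replicate 3 was the highest for all 7. mt-nd3 was the least alike, as only 1 of the other 6 was among the 100 genes most correlated with it, out of 8382 genes with a mean of at least 10 CPM. For mt-nd2 and mt-nd4 this was 5 of 6.

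Outside complex I, the genes most like the summed 7 transcripts were found by the same measure among 8376 genes. The highest were C7H16orf87, with r = 0.99 (Spearman rho 0.94), and AP4B1, which encodes a subunit of an adaptor complex of vesicle transport, with r = 0.99 (Spearman rho 0.94). Among the mitochondrially encoded genes, mt-atp6, mt-atp8 and mt-cyb came at ranks 5, 7 and 8. mt-co1, mt-co3 and mt-co2 followed at ranks 48, 106 and 167. The most opposed were afap1l1b and PRR5, each with r = -0.998. afap1l1b was at 294, 990 and 73.9 CPM in miR-150 libraries and at 1066, 567 and 717 CPM in controls, so it was lowest where the complex I transcripts were highest.

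The other mitochondrially encoded protein genes were without calls as well. Of the 6, 0 were called and 6 had a log2 fold change above 0, with a median of 0.71 (edgeR quasi-likelihood test). Summed, they were at 18569, 10394 and 42944 CPM in miR-150 replicates 1, 2 and 3 and at 14144, 13990 and 15324 CPM in control replicates 1, 2 and 3. mt-atp6 had the largest log2 fold change of the 6, 1.299 ± 0.64 (SE; adjusted p = 0.974), a value above that of every complex I member but mt-nd6. mt-co1 and mt-cyb had the lowest log2 fold changes of the 6, each at 0.65. On TMM-scaled CPM 2 of the 6, mt-atp6 and mt-atp8, were higher in every miR-150 library than in every control. Of all genes tested, 7.64% were. Without miR-150 replicate 3 the median of the 6 was 0.069 and 3 of 6 were above 0, where the 7 complex I genes had a median of 0.48 and 7 of 7 above 0. The difference between these 2 lists was not tested.

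The nuclear genes of complex I were not called either. Of 40 listed subunits 35 were matched by name and 33 were tested, and 0 were called in either direction. ndufs1 and ndufb4, the identifiers of which were at or near 0 in every library, were not tested. All 33 had a log2 fold change above 0, with a median of 1.02, but 26 of 33 did so without miR-150 replicate 3, with a median of 0.26. Their summed level was 1192, 1657 and 3986 CPM in miR-150 replicates 1, 2 and 3, against 1413, 1217 and 994 CPM in control replicates 1, 2 and 3. miR-150 replicate 1, which had more of every mitochondrially encoded subunit than any control, was thus inside the control range for the nuclear ones, and miR-150 replicate 2 was above it. Taken singly, 6 of the 33 were higher in every miR-150 library than in every control, where 7.64% of all genes tested were.

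Among the nuclear subunits, the largest log2 fold change was that of ndufa9b, 1.98 ± 1.43 (SE; adjusted p = 0.988), on values below 1.5 CPM. The smallest was that of ndufv1, which encodes the subunit that binds NADH and flavin, with 83.5, 95.4 and 115 CPM in miR-150 libraries and 109, 62.4 and 68.7 CPM in controls (log2 fold change 0.29 ± 0.36, SE; adjusted p = 0.988).

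Genes that assemble complex I and genes that express mitochondrial DNA were also without calls. Of 15 assembly factors 14 were tested, of which 0 were called and 12 had a log2 fold change above 0. The extremes were ndufaf4, at 2.41 ± 1.08 (SE; adjusted p = 0.938), and ndufaf2, at -0.14 ± 1.07 (SE; adjusted p = 0.995). Of 17 expression factors 15 were matched and 14 tested, with 0 called and a median of 0.79. The extremes there were elac2, the enzyme that trims the 3′ ends of tRNAs out of the precursors, at 2.94 ± 1.04 (SE; adjusted p = 0.819), and tefm, the elongation factor of mitochondrial transcription, at -1.54 ± 1.70 (SE; adjusted p = 0.988). elac2 was at 3.63, 45.5 and 59.8 CPM in miR-150 libraries and 2.84, 8.26 and 3.14 CPM in controls, so miR-150 replicates 2 and 3 were high for it and replicate 1 was not. Without miR-150 replicate 3 the median log2 fold change of the expression factors was 0.11, with 7 of 14 above 0, against 12 of 14 with all libraries. That of the assembly factors was then 0.39, with 14 of 14 above 0.

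**Figure D5:**
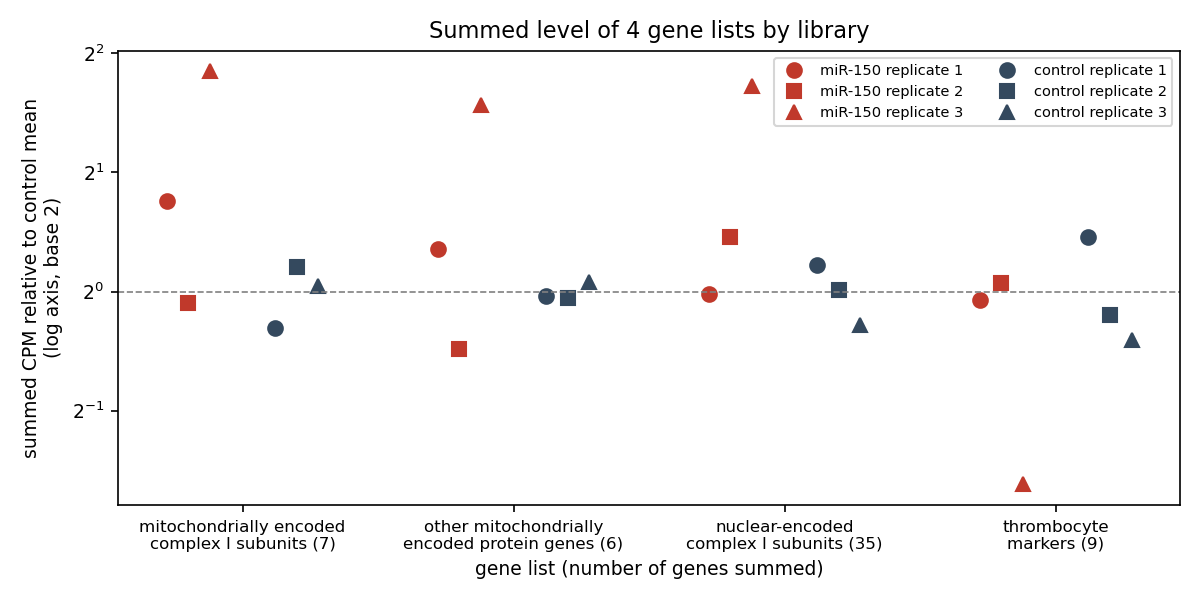
Summed TMM-scaled CPM of 4 gene lists, divided by the mean of the 3 controls (log axis, base 2), in each miR-150 library (red, left) and each control library (dark, right). miR-150 replicate 3 is the highest library for both mitochondrial lists and for the nuclear complex I subunits (3986 CPM) and the lowest for the thrombocyte markers (2413 CPM), while miR-150 replicate 1 lies above the controls for both mitochondrial lists and within their range for the other 2.

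Marker lists held no call in the edgeR fit, and DESeq2 called 1 of the 5 tested erythroid markers, hbae3, and no gene of the other lists. Of the 7 thrombocyte markers tested, 0 were called and 0 had a log2 fold change above 0, with a median of -0.43. Skeletal muscle, whose fibres hold many mitochondria, had summed markers at 2032, 1634 and 1631 CPM in miR-150 replicates 1, 2 and 3 and at 1305, 814 and 2459 CPM in control replicates 1, 2 and 3. Summed erythroid markers were at 267, 349 and 427 CPM in miR-150 libraries and at 413, 259 and 187 CPM in controls. Most of that sum was gata1a in every library but miR-150 replicate 3. gata1a was at 245, 281 and 132 CPM in miR-150 libraries and at 383, 238 and 162 CPM in controls. hbae3, an embryonic globin gene, was at 5.15, 41.4 and 221 CPM in miR-150 libraries and at 0.895, 2.75 and 4.02 CPM in controls, with miR-150 replicate 3 far above the rest. Summed myeloid markers, most of which was ptprc in every library, lay between 104 and 274 CPM, and neural ones between 27.8 and 194 CPM. By name, 9 of 15 thrombocyte, 6 of 10 erythroid, 8 of 14 skeletal muscle, 6 of 10 myeloid and 6 of 10 neural markers were matched. The sums leave out the listed markers without a match. The part of these markers in the levels of complex I transcripts was not tested.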

How the data were processed

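The authors deposited raw read counts per Ensembl gene, 1 column per library. Per the submitters' processing notes, the tools included STAR 2.7.10b, HTSeq 0.11.3 and edgeR, and the build was GRCz11. Annotation release, strand setting, treatment of reads with several matches (such as nuclear copies of mitochondrial DNA) and duplicates are not given in the sources used here. Per the labels' protocols, cDNA came from a SMARTer ultra-low input kit and libraries from Nextera XT.

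Gene names came from a table that paired 29201 of the 32520 identifiers, matched without regard to case. No transcript lengths of this build were at hand, so levels were not compared between genes.

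Counts were fitted in R 4.3.3 with edgeR 4.0.16 (filterByExpr, TMM, glmQLFit, genotype as the only term, Benjamini-Hochberg over 15722 genes, threshold 0.05). The SE was taken from the F statistic, and 95% intervals use the degrees of freedom of the test. Log2 CPM used a prior count of 2. Alternatives were DESeq2 1.42.0, limma 3.58.1 voom, other scalings and filters, each library left out and a replicate block. Scripts were tested on simulated data with less spread than these data. Here the biological coefficient of variation, the spread between replicates in edgeR, was 1.03. The simulation therefore does not show which differences could be called here. The members, the lists and the alternatives were chosen with earlier results of these data known. Named were the 7 members, the 2 genes most and least correlated with their sum, and the extremes of the gene lists; exceptions are stated. Depth was 12972258 to 22150519 counts, and 3 counts correspond to 0.135 to 0.231 CPM.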

Additional observations from a re-analysis of the deposited data

How the results depend on the processing

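Of the 7 complex I members, 0 were called under any alternative run, and all 7 kept a positive log2 fold change in each of them. Over all genes edgeR and limma voom called 0 under every alternative, and DESeq2 called 254. Members without overlap between the groups numbered 0 with all libraries under TMM, DESeq2 size factors, upper-quartile scaling and TMM without the members. They numbered 1 when scaled to the 13 mitochondrially encoded protein genes, an alternative added after seeing the data. With a library left out, members without overlap ranged from 0 to 7. The 7 arose without miR-150 replicate 2, the only miR-150 library not above every control for all members, so that count is no test. The fit without miR-150 replicates 2 and 3 leaves 1 miR-150 library, already known to lie above every control for all 7, so overlap there is no test either. The difference in the summed share of counts ranged from 0.0372 to 0.186 percentage points with a library left out. The median member log2 fold change was 0.79 with the replicate block, in which 0 genes were called. Deviations of same-numbered libraries correlated at -0.19, -0.10 and -0.04, so the numbers were not taken as pairs. Between DESeq2 size factors, upper-quartile scaling and TMM without the members, the median over all genes moved by under 0.1. Counting intervals were narrow beside the spread between libraries.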
